A study of Mus musculus with 12 samples.

Results

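The genes described here encode the proteins of the cytosolic ribosome. They were taken as every mouse symbol that starts with Rpl followed by a digit or a p, or with Rps followed by a digit or an a, leaving out pseudogene symbols (-ps) and the S6 kinases. This gave 84 of the 12643 genes measured: 43 proteins of the large subunit, 31 of the small subunit, the 3 stalk proteins Rplp0, Rplp1 and Rplp2, and 6 paralogs. The paralogs are Rpl7l1, Rpl22l1, Rpl32l, Rpl36al, Rps27l and Rps27rt. The last gene that the symbols bring in, Rps19bp1, is no ribosomal protein: it encodes a nucleolar protein that binds RPS19 and was described in human cells as a regulator of the deacetylase SIRT1. All 84 passed the expression filter, which removed 0 genes, and the lowest had 511 counts over the 12 libraries.

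RNA came from MIN6 cells, a line grown out of a mouse insulinoma and used as a stand-in for pancreatic beta cells; all cells were at passage 29. They were nucleofected with siRNA against Pdx1, a homeodomain transcription factor that activates the insulin genes, or with the control, an siRNA called NT, and were collected 72 h later. Under each siRNA the RNA held by purified ribosomes (IP) and the total RNA of the cells were both sequenced, which makes 4 groups of 3 libraries: Pdx1 siRNA IP, NT IP, Pdx1 siRNA total and NT total. The purification is TRAP, in which ribosomes carrying a tagged ribosomal protein are pulled down with the mRNAs they hold; the tagged protein in these cells is not given in the sources used here.

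Each ribosome holds a single copy of nearly all these proteins, and cells therefore make them in matched amounts. Their mRNAs are short and abundant, and in mammals they begin with a C followed by a run of pyrimidines, the terminal oligopyrimidine (TOP) motif, through which mTORC1 and its effector LARP1 set how many ribosomes they carry. The genes have left many processed pseudogenes across the mouse genome, so that a short read from one of their mRNAs can match several places. Cultured beta cells are secretory cells, and their ribosomes are known mainly for making proinsulin at the endoplasmic reticulum.

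The start of the RNA is shown for 6 members, since the motif is what the mRNAs of this family are known to share. Each line gives RefSeq's sequence of GRCm38.p6 from 30 bases before to 30 bases from the annotated start, read on the gene's strand, and capitals mark the unbroken run of pyrimidines from the first base. They are among the longest such runs that open with a C in the members with a promoter entry. Rpl32l is a copy of Rpl32 that GENCODE lists as a processed pseudogene, so its line is not shown to be the start of an mRNA of its own.
Rpl15 (chr14:18270957-18271016): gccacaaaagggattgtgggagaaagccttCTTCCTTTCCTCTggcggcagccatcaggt
Rpl35 (chr2:39005102-39005161): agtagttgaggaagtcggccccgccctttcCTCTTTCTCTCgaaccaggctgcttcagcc
Rpl32l (chr10:20208409-20208468): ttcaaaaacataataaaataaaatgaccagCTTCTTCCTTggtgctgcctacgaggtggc
Rps10 (chr17:27635215-27635274): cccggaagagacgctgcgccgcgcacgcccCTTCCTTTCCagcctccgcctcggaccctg
Rps18 (chr17:33955636-33955695): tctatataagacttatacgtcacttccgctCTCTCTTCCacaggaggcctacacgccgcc
Rps6 (chr4:86857338-86857397): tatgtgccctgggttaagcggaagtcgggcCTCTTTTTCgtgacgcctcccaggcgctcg

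A start with C and at least 5 pyrimidines in a row was found at 15 of the 64 members with an entry, 23.4%, against 3.01% of all 27025 genes in the table. The motifs CTTTC or CTTCC on the gene's strand lay within the 60 bases around the start of 39 members, 60.9%, against 21.8% of all genes. CCGGAAG, the core bound by ETS family factors, lay on either strand in the 300-base promoter of 25 members, 39.1%, against 9.93% of all genes. TATAA was sought in a 60-base stretch that begins further upstream, and lay there in 6 members, 9.38%, against 6.41% of all genes. An annotated start can lie some bases away from the one these cells use, so a missing run says nothing of the mRNA itself.

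Libraries held 29430690 to 45806807 counts over all genes, and replicates of a group correlated at r = 0.985 to 0.998 on the log scale over genes. Every pair of replicates differed by more than counting noise, the smallest chi-square over its degrees of freedom being 5.75. Whether the replicates were separate cultures is not in the labels, so the p-values cover the spread of these libraries only and that spread may be technical. Pdx1 was lower in every Pdx1 siRNA library, at 47.6, 57.4 and 47.9 CPM against 118, 123 and 109.6 CPM in NT total RNA (log2 fold change −1.20, SE 0.10, adjusted p = 4.9e-08, edgeR). Levels are counts scaled to the library's TMM-adjusted total (CPM). All 10 beta cell markers were measured. Of 4 markers of other islet cells only Gcg and Ppy were, and their summed level was 5253 to 5951 CPM in Pdx1 siRNA IP, 1494 to 1537 CPM in NT IP, 2881 to 3290 CPM in Pdx1 siRNA total and 751 to 785 CPM in NT total RNA; their part in the results below was not tested. None of the 11 acinar, duct, immune, endothelial and stromal markers is among the genes analysed here.

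The 84 genes together took 1.37%, 1.24% and 1.05% of the counts in the Pdx1 siRNA IP libraries, against 1.90%, 1.64% and 1.23% in the NT IP libraries. In total RNA they took 1.11%, 0.836% and 0.798% after Pdx1 siRNA, against 1.08%, 0.903% and 1.02% after NT. These are shares of unscaled counts. With TMM scaling the members' summed levels in total RNA were 10380, 8212 and 8394 CPM after Pdx1 siRNA, against 8888, 7398 and 8248 CPM after NT. Those libraries overlap too, and which group is higher depends on the scaling. The shares of the groups overlap in total RNA. In IP RNA they overlap only through NT IP 3, as NT IP 1 and 2 lie above every Pdx1 siRNA IP library. Replicate 1 had the highest share in all 4 groups. Within Pdx1 siRNA total RNA, replicate 1 was the highest of the 3 libraries at 79 of 84 members, and within NT total RNA at 70 of 84. Bulk RNA gives the share of these mRNAs in a pool of cells, so that fewer cells and less RNA per cell cannot be told apart.

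Counted levels of the members differed widely although most of the proteins are used in matched amounts. Per kilobase of transcript, the median member had 58.8 CPM per kb in NT total RNA, and the range was 1.28 to 813 CPM per kb, 636-fold. Rpl41 (chromosome 10, 128548110 to 128549168, mm10), whose product is a very small basic protein at the surface between the subunits, was the highest at 813 ± 111 CPM per kb (SD, n = 3). It was followed by the acidic stalk protein Rplp1 at 551 ± 69.8 CPM per kb, by Rpl13a, known in human monocytes as part of a translation-silencing complex, at 518 ± 53.7 CPM per kb, and by Rpl8, which lies at the peptidyl transferase centre, at 487 ± 20.9 CPM per kb. The SDs of Rplp1, Rpl13a and Rpl8 overlap, and that of Rpl41 lies above them.

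The lowest were Rps23, a protein of the decoding site, at 1.28 ± 0.315 CPM per kb and Rpl28 at 1.33 ± 0.0617 CPM per kb, which do not differ beyond their spread. In all, 20 members were below 10 CPM per kb, while 32 were at 100 CPM per kb or above. Among the low ones were Rpl5 at 7.27 ± 0.331 and Rpl11 at 3.12 ± 0.221 CPM per kb, the proteins that with 5S rRNA bind MDM2, and Rpl10, which joins the large subunit last, at 8.77 ± 0.743 CPM per kb. Rps6, the substrate of the S6 kinases, had 9.41 ± 0.699 CPM per kb, and Rpl10a, which carries the tag in the original TRAP mouse lines, had 10.04 ± 0.742 CPM per kb. Lengths are those of 1 linked GENCODE transcript, and for Rps15a and Rps20 that transcript is unusually long (5179 and 3706 bases, against a median of 795 bases over the members), so their levels per kb are uncertain.

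**Figure D1:**
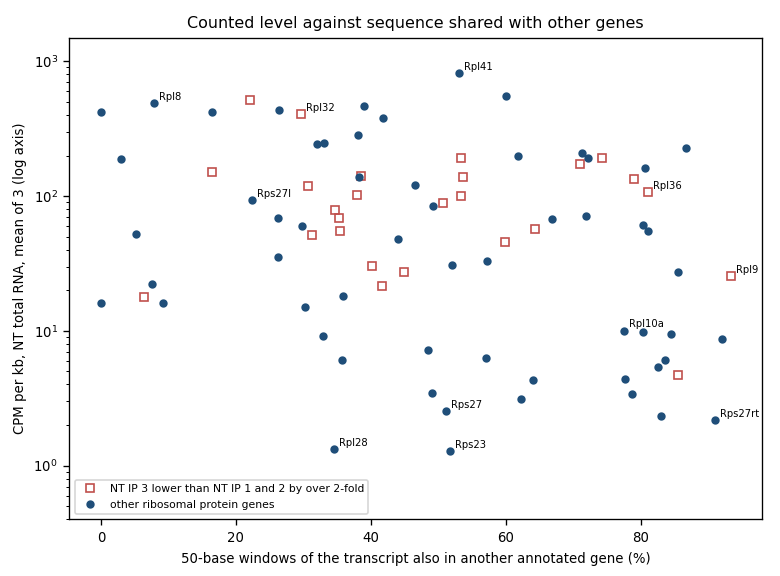
Level per kilobase in NT total RNA (mean of 3 libraries, log axis) against the share of each transcript's 50-base windows that also occur in another annotated gene; each point is 1 of the 84 genes, and open squares are the 26 whose level in NT IP 3 was more than 2-fold below the mean of NT IP 1 and 2. Squares and filled points lie over nearly the whole width, and the 20 genes below 10 CPM per kb have from 32.9% to 92.1% of their windows elsewhere.

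Sequence shared with other genes was counted for each member. Near-identical copies elsewhere, alignments of at least 95% identity that cover at least 50% of the transcript, were found for 58 members, 69.05%, against 3.55% of all genes. At least 1 exact 50-base window was shared with another annotated gene by 82 members. Rps19bp1 shared none, and Rpl8, among the highest members per length, shared 7.86% of its windows. The median share was 70.9% over the 20 members below 10 CPM per kb and 40.4% over the 32 at 100 CPM per kb or above. How reads that match several places were counted is not given in the sources used here, so levels of members with copies are uncertain, and the part of this in the differences between genes was not tested.

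The clearest case of a shared sequence is Rpl32l (chromosome 10, 20208439 to 20209030), a copy of Rpl32 (chromosome 6, 115805514 to 115808743) that RefSeq lists as a protein-coding gene and GENCODE as a processed pseudogene. The copy and the Rpl32 coding sequence were identical at 388 of 404 aligned positions, 96.0%. Their first 60 coding bases, shown because reads that lie within them cannot be told apart, are the same.
Rpl32: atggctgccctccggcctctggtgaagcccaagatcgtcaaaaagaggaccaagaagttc
Rpl32l: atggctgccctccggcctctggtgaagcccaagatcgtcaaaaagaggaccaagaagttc

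Rps27 (chromosome 3, 90212667 to 90213648), a zinc-finger protein of the small subunit, has a retrogene, Rps27rt (chromosome 9, 114982366 to 114982739), and a paralog, Rps27l (chromosome 9, 66944624 to 66949522), described in human cells as a target of p53. Capitals mark where Rps27l differs from Rps27 in the first 60 coding bases.
Rps27: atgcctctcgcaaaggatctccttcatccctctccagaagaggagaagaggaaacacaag
Rps27rt: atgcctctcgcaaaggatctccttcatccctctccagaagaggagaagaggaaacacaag
Rps27l: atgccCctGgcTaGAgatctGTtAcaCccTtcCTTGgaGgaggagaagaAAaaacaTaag
Rps27 and Rps27rt were identical over all 255 coding bases, whereas Rps27l matched Rps27 at 194 of them, 76.1%, with 18 differences in the stretch shown. Rps27l was counted at 93.6 ± 20.0 CPM per kb in NT total RNA, against 2.53 ± 0.355 for Rps27 and 2.18 ± 0.474 for Rps27rt. The counts of Rps27 come from a non-coding RefSeq transcript of the gene, so the 3 levels are not levels of 3 mRNAs.

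Replicate 3 of NT IP has to be shown apart, because it differed from NT IP 1 and 2 at a large part of this family. It was lower than their mean by more than 2-fold at 26 of the 84 members, 31.0%, against 1.15% of all genes, and by more than 8-fold at 11 of them. Rpl32l had 0.813 CPM in NT IP 3, against 45.7 and 37.5 CPM in NT IP 1 and 2, 51.2-fold lower. The 3 Pdx1 siRNA IP libraries had 1.38, 1.02 and 0.639 CPM of it, the Pdx1 siRNA total libraries 22.3, 19.3 and 19.3 CPM and the NT total libraries 23.7, 20.2 and 22.2 CPM. NT IP 3 thus sat among the Pdx1 siRNA IP libraries and far below the 8 others.

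Rpl36, Rpl35 and Rps7 had the same pattern. Rpl36, a large subunit protein, had 4.91 CPM in NT IP 3, against 83.4 and 76.4 CPM in NT IP 1 and 2, and 6.92, 5.92 and 5.86 CPM in Pdx1 siRNA IP. Rpl35, which lies by the exit of the peptide tunnel, had 3.31 CPM in NT IP 3, against 57.5 and 48.4 CPM in NT IP 1 and 2, and 3.02, 3.38 and 2.41 CPM in Pdx1 siRNA IP. Rps7, a small subunit protein needed for rRNA maturation, had 6.08 CPM in NT IP 3, against 83.3 and 68.7 CPM in NT IP 1 and 2, and 7.97, 6.31 and 5.95 CPM in Pdx1 siRNA IP. In all 3 the 4 low IP libraries lie below every total RNA library, and NT IP 1 and 2 lie above every one.

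The 26 members without a near-identical copy show both patterns. Rpl35, Rpl37 (11.2-fold) and Rps16 (10.8-fold) were far lower in NT IP 3 than in NT IP 1 and 2, and Rplp2 (4.05-fold), Rpl39 (3.89-fold), Rpl23 (3.55-fold) and Rps15a were among those lower by less. The other 18 were within 2-fold, among them Rpl5, Rpl7l1, Rpl8, Rpl15, Rpl21, Rpl22, Rpl27a, Rpl28, Rpl30, Rpl31, Rps3, Rps19bp1, Rps20, Rps25, Rps27l, Rps29 and Rpsa. A member without such a copy can still share windows with other genes, as Rpl35 did with 40.1% and Rps16 with 41.6% of theirs.

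At the other end, Rpl29 had 143 CPM in NT IP 3 against 108 and 97.6 CPM in NT IP 1 and 2, the highest ratio among the members, and Rpl41 and Rpl14 were also higher in NT IP 3. NT IP 3 was above the mean of NT IP 1 and 2 at 12 members in all. Of the members with a near-identical copy 31.0% were lower by more than 2-fold, and of those without one, most of which hold shorter stretches of copied sequence, 30.8%. Among all other genes the shares differed, at 14.1% of the 391 with a near-identical copy and 0.470% of the 12126 without one. Over the 84 members the Spearman correlation between the share of windows found elsewhere and the log2 ratio of NT IP 3 to NT IP 1 and 2 was −0.06, from the same libraries. Just inside the 2-fold limit lay Rps15a at 2.03-fold and Rpl36a at 2.10-fold, and just outside it Rpl19 at 1.98-fold and Rps25 at 1.97-fold lower. NT IP 3 lay within 2-fold of the Pdx1 siRNA IP mean at 83 of 84 members, the exception being Rps2.

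**Figure D2:**
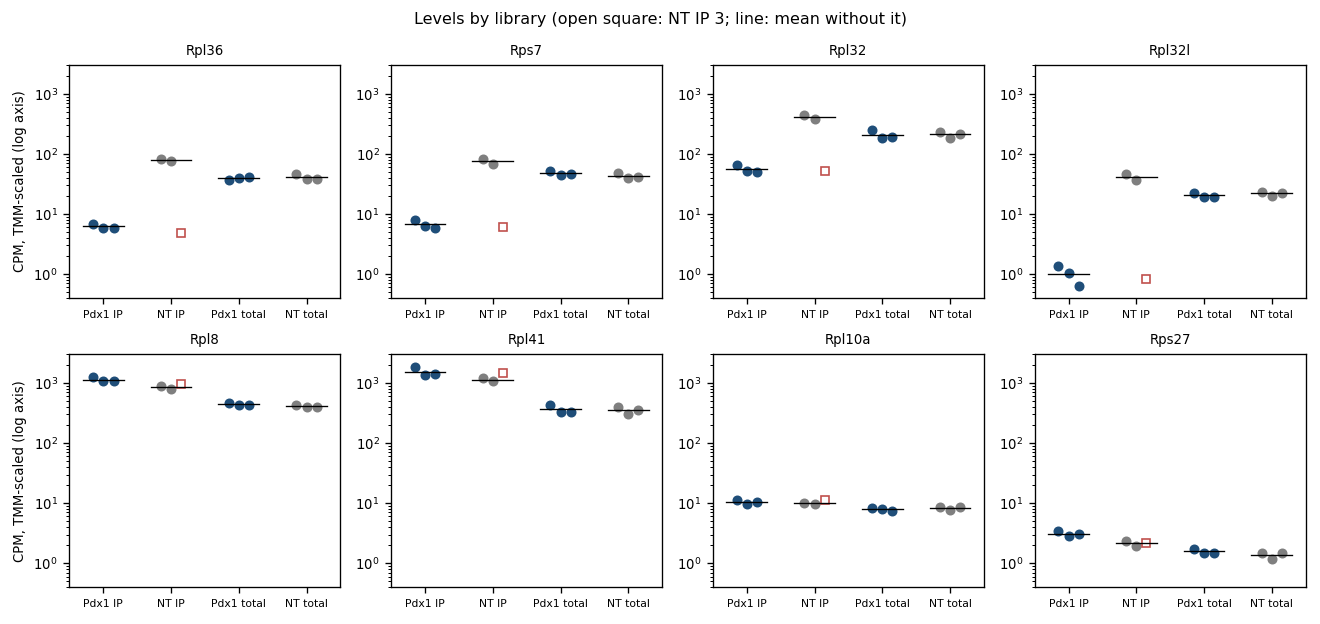
CPM (log axis) of 8 members in each library, with Pdx1 siRNA IP, NT IP, Pdx1 siRNA total and NT total from left to right; points are libraries, the open square is NT IP 3, and the line is the group's mean without it. Rpl36, Rps7, Rpl32 and Rpl32l are low in the Pdx1 siRNA IP libraries and NT IP 3, while Rpl8, Rpl41, Rpl10a and Rps27 show no such gap.

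The first comparison set the scaled level of each ribosomal protein mRNA in NT IP 1 and 2 against that in NT total RNA. Such a ratio is relative to the other genes and does not give the part of an mRNA held on ribosomes. Nearly the whole family was higher in IP RNA: 82 of 84 members were called higher and 0 lower (edgeR, adjusted p under 0.05 over all genes), where 66.6% of all genes were called, 32.7% higher and 33.9% lower. At an unadjusted p under 0.05 edgeR still had 0 members lower, and DESeq2 called 81 higher and 0 lower. The median log2 ratio was 0.97 over the members and −0.01 over all genes. By class, 41 of 43 large subunit proteins, 31 of 31 small subunit proteins, 3 of 3 stalk proteins and 6 of 6 paralogs were higher, with median log2 ratios of 0.97, 0.98, 1.19 and 0.84.

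Rpl41 had the largest ratio, with 1209.7 and 1074 CPM in NT IP 1 and 2 and 405, 308 and 353 CPM in NT total RNA (log2 fold change 1.68, SE 0.15, adjusted p = 2.0e-07); NT IP 3, at 1461 CPM, was higher still. Rps14, a protein of the small subunit's platform whose loss causes the anaemia of the human 5q- syndrome, had 494 and 403 CPM in NT IP 1 and 2 and 187, 145 and 174 CPM in NT total RNA (log2 fold change 1.41, SE 0.16, adjusted p = 1.5e-06). The IP libraries lie clear of the total libraries in both genes. Rps4x, a small subunit protein encoded on the X chromosome, was at a log2 ratio of 1.36.

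The stalk proteins, which recruit the elongation factors, were at log2 ratios of 1.21 for Rplp2, 1.19 for Rplp1 and 1.01 for Rplp0. Rps19, mutated in human Diamond-Blackfan anaemia, was at 1.24, Rpsa, also known as the laminin receptor, at 1.29, and Rps6 at 0.89. Rpl5 and Rpl11 were at 0.76 and 0.70. Among the paralogs Rpl22l1 was highest, 2.38-fold higher in IP, and Rpl7l1, a relative of Rpl7 with a part in ribosome assembly in human cells, was lowest at a log2 ratio of 0.53.

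The 2 members not called were Rpl12, at the base of the stalk, with 4.58 and 4.34 CPM in NT IP 1 and 2 and 4.799, 3.67 and 4.34 CPM in NT total RNA (log2 fold change 0.07, SE 0.13, adjusted p = 0.646), and Rpl23a, which lies by the tunnel exit where nascent chains meet their targeting factors (log2 fold change 0.08, SE 0.16, adjusted p = 0.684). Both overlap between the fractions. Rpl10a had the smallest ratio among the members called, with 10.1 and 9.70 CPM in NT IP 1 and 2 and 8.56, 7.63 and 8.80 CPM in NT total RNA (log2 fold change 0.25, SE 0.10, adjusted p = 0.0331). Among the members called with a mean of at least 5 CPM, Rpl10 (0.35), Rpl7l1 (0.53) and Rpl7a (0.55) came next. The call of Rpl10a was lost without NT IP 1 or without NT total 2, at log2 ratios of 0.22 and 0.22. The 20 members below 10 CPM per kb had a median log2 ratio of 0.77 and the 32 at 100 CPM per kb or above one of 1.04.

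Transcript length moved with the IP to total ratio over the whole table. Over 12601 genes the Spearman correlation of length with the log2 ratio of NT IP 1 and 2 to NT total was −0.63, and the members' transcripts had a median of 795 bases against 2966 bases over all genes. Within the 84 members the same correlation was −0.06. The part of length in the family's high ratio was not tested. NT IP 3 alone stood above the NT total mean at 54 of 84 members, with a median log2 ratio of 0.43; 54 of the 58 members outside the 26 were above it, with a median of 0.61, while the median of the 26, which were chosen for being low in this library, was −1.91.

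**Figure D3:**
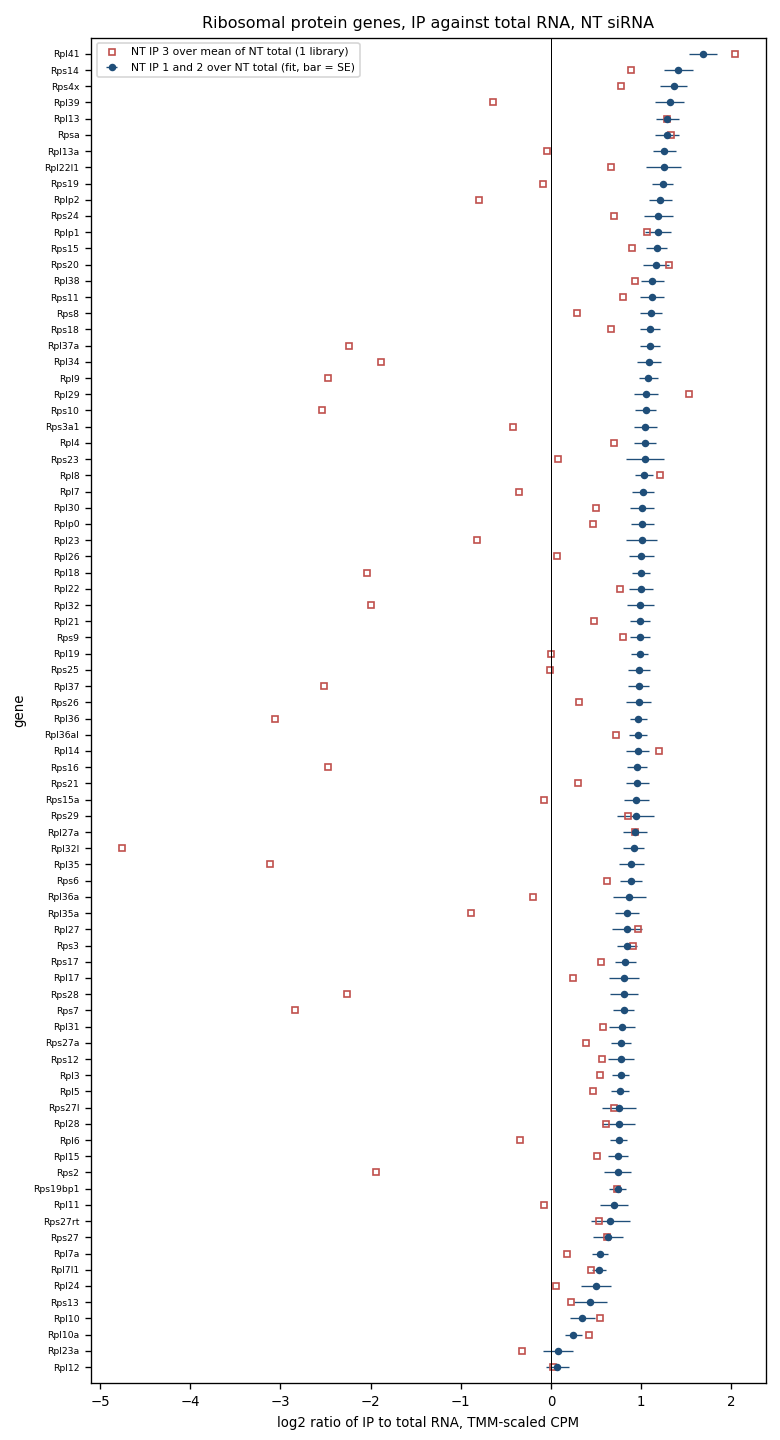
Log2 ratio of IP to total RNA in NT cells for 82 of the 84 genes, sorted by the ratio of NT IP 1 and 2 (filled points, bar = SE of the edgeR fit); open squares give NT IP 3 over the mean of NT total RNA, 1 library without error. The filled points run from 0.07 (Rpl12) to 1.68 (Rpl41), and the squares fall to the left of 0 for 29 genes.

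After Pdx1 siRNA the same ratio split the family. Against Pdx1 siRNA total RNA, 49 members were higher in Pdx1 siRNA IP and 19 were lower, where 75.5% of all genes were called, 36.5% higher and 39.0% lower. The median log2 ratio was 0.45 over the members and −0.02 over all genes. The split followed the behaviour of NT IP 3, whose values this comparison does not use: of the 26 members that were low there, 0 were higher in Pdx1 siRNA IP and 19 lower (median log2 ratio −1.35), whereas of the other 58 members 49 were higher and 0 lower (median 0.84). Rpl41 had 1835, 1387 and 1391 CPM in Pdx1 siRNA IP and 438, 332 and 328 CPM in Pdx1 siRNA total RNA (log2 fold change 2.07, SE 0.14, adjusted p = 3.1e-09). IP and total libraries lie well apart. Rpsa (1.60) and Rpl29 (1.51) were also among the highest on the log2 scale.

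The lowest ratio was that of Rpl32l, with 1.38, 1.02 and 0.639 CPM in Pdx1 siRNA IP and 22.3, 19.3 and 19.3 CPM in Pdx1 siRNA total RNA (log2 fold change −4.37, SE 0.17, adjusted p = 1.7e-11). Rpl35 (−3.19), Rps7 (−2.82) and Rpl9 (−2.80) followed on the log2 scale. IP and total libraries are well apart in all 4 genes. Because NT IP 3 shows the same low values under the other siRNA, and NT IP 1 and 2 do not, the part of the siRNA in them cannot be told apart from what sets these 4 IP libraries apart.

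The second question was what Pdx1 depletion did to these mRNAs, and total RNA was tested first, since the low values of NT IP 3 play no part there. Most of the family did not pass the test: 8 members were called higher and 2 lower by edgeR, 11.9% of them, where 54.1% of all genes were called, 24.1% higher and 30.0% lower. The median log2 fold change was 0.12 over the members and −0.04 over all genes, and 82 of 84 members were within 0.5 of no change. The 8 higher were Rpl3, Rpl7, Rpl9 and Rpl27a of the large subunit, Rps3a1 and Rps6 of the small subunit, and the paralogs Rpl22l1 and Rps27l. The 2 lower were Rpl7l1 and Rps19bp1.

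Rpl22l1 (chromosome 3, 28805508 to 28807424) changed most. It encodes the paralog of Rpl22, an RNA-binding large subunit protein that represses it in mice. It had 43.2, 25.2 and 26.6 CPM in Pdx1 siRNA total RNA, against 20.4, 15.8 and 18.9 CPM in NT total RNA, a 1.72-fold rise (log2 fold change 0.78, SE 0.18, adjusted p = 0.0014). Every Pdx1 siRNA library was above every NT library, and replicate 1 was far above the other two. Rpl22 itself had 117, 85.4 and 86.6 CPM in Pdx1 siRNA total RNA, against 120.2, 94.2 and 107 CPM in NT total RNA (log2 fold change −0.15, SE 0.12, adjusted p = 0.294), with overlapping libraries.

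Rps27l had 84.4, 51.0 and 54.5 CPM in Pdx1 siRNA total RNA, against 54.1, 35.4 and 50.6 CPM in NT total RNA (log2 fold change 0.44, SE 0.17, adjusted p = 0.0386). The libraries overlap, since 1 NT library lies within the range of the Pdx1 siRNA libraries. Its call was lost with DESeq2 (adjusted p = 0.0896), with only the compared libraries, without NT total 2 and without Pdx1 siRNA IP 2. Without Pdx1 siRNA total 1 the value was 0.18 and not called (adjusted p = 0.244, edgeR). The same library decided Rpl27a, which had 35.3, 24.7 and 23.6 CPM in Pdx1 siRNA total RNA, against 21.8, 18.6 and 22.6 CPM in NT total RNA (log2 fold change 0.41, SE 0.12, adjusted p = 0.0115), and Rps6, which had 13.4, 9.21 and 9.52 CPM against 8.02, 7.80 and 8.96 CPM in NT total RNA (log2 fold change 0.36, SE 0.12, adjusted p = 0.0141). Without it they were at 0.20 and 0.18 on the log2 scale and lost their calls.

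Rpl3, whose protein reaches to the peptidyl transferase centre, had 52.5, 44.1 and 44.4 CPM in Pdx1 siRNA total RNA, against 37.2, 34.7 and 38.9 CPM in NT total RNA (log2 fold change 0.35, SE 0.09, adjusted p = 0.00381), and its groups did not overlap. Rps3a1, at the mRNA exit, had 264, 195 and 205 CPM in Pdx1 siRNA total RNA, against 181, 152 and 176 CPM in NT total RNA (log2 fold change 0.38, SE 0.12, adjusted p = 0.0105), a call lost when NT IP 3 shared a mean with NT IP 1 and 2 (adjusted p = 0.231). Rpl9 and Rpl7 had log2 fold changes of 0.35 and 0.28. These are rises of 1.21-fold to 1.72-fold over the 8 genes.

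Rps19bp1 (chromosome 15, 80260614 to 80264306) fell to 9.73, 8.31 and 7.89 CPM in Pdx1 siRNA total RNA, against 14.4, 12.8 and 13.0 CPM in NT total RNA (log2 fold change −0.63, SE 0.09, adjusted p = 1.5e-05). Rpl7l1 was at 37.2, 36.5 and 33.5 CPM in Pdx1 siRNA total RNA, against 42.6, 41.1 and 41.2 CPM in NT total RNA (log2 fold change −0.22, SE 0.07, adjusted p = 0.0151). In neither gene did the groups overlap. Both lie outside the structural proteins of the mature ribosome, of which 0 was called lower: 0 of 43 large and 0 of 31 small subunit proteins and 0 of 3 stalk proteins, also at an unadjusted p under 0.05. DESeq2 called 2 members lower in all. Without Pdx1 siRNA total 1, however, Rpl10 (−0.35, adjusted p = 0.0136, edgeR) and Rpl22 (−0.32, adjusted p = 0.0103) were called lower, and without NT total 2 Rps29 was (−0.57, adjusted p = 0.0332). With the replicate number as a block, the stalk protein Rplp2 was called lower (−0.21, adjusted p = 0.018, edgeR). The call of Rpl7l1 was lost without Pdx1 siRNA total 3 (−0.18) or any single NT total library (−0.17 to −0.19).

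The stalk proteins Rplp0 (0.21), Rplp1 (0.11) and Rplp2 (−0.22) did not pass the test in total RNA, nor did Rpl5 (0.20), Rpl11 (0.00, with 3.10, 2.01 and 2.79 CPM after Pdx1 siRNA and 2.77, 2.40 and 2.63 CPM after NT), Rps19 (0.20), Rpsa (0.13) and Rpl10a (−0.08). The other paralogs were at −0.12 (Rpl32l), −0.15 (Rpl36al) and 0.20 (Rps27rt), also without a call. The counts of calls rest in part on single libraries. Without Pdx1 siRNA total 1 there were 4 higher and 4 lower, and the members' median was −0.0018. Without NT total 1 there were 13 higher and 1 lower, without Pdx1 siRNA IP 1 14 higher, and without Pdx1 siRNA total 3 or NT total 3 only 1 lower.

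**Figure D4:**
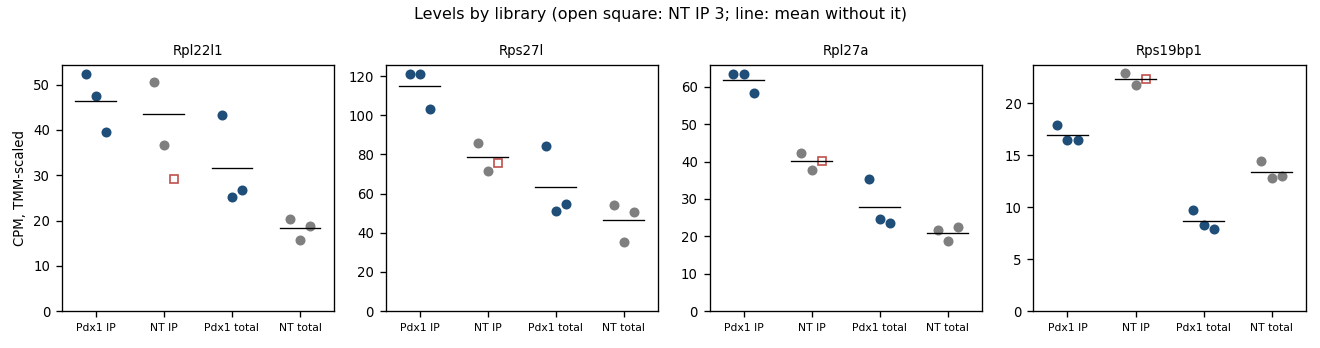
CPM of Rpl22l1, Rps27l, Rpl27a and Rps19bp1 in each library (linear axes from 0), with Pdx1 siRNA IP, NT IP, Pdx1 siRNA total and NT total from left to right; the open square is NT IP 3 and the line is the group's mean without it. In total RNA the Pdx1 siRNA libraries lie above the NT libraries for Rpl22l1 and Rpl27a, overlap them for Rps27l and lie below them for Rps19bp1.

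In IP RNA the effect of Pdx1 siRNA depends on the NT library it is set against. NT IP 3, the library that is close to the Pdx1 siRNA IP libraries at these genes, gave 14 members higher and 1 lower, where 41.2% of all genes were called, 20.6% higher and 20.6% lower. The median log2 fold change was 0.23 over the members and −0.01 over all genes. This is 3 libraries against 1, and the test assumes that the lone library varies like those of the other groups. Among those higher, Rpl6, Rpl7a, Rpl19, Rps2, Rps18, Rps21 and Rplp0 had a Pdx1 siRNA IP mean below that of NT IP 1 and 2. The remaining ones were above it. Rpl6 had 61.9 CPM per kb in Pdx1 siRNA IP, against 45.2 in NT IP 3 and 96.6 in NT IP 1 and 2. The 14 were Rpl3, Rpl5, Rpl6, Rpl7a, Rpl19 and Rpl27a of the large subunit, Rps2, Rps6, Rps9, Rps18, Rps21 and Rps27 of the small subunit, the stalk protein Rplp0 and the paralog Rpl22l1.

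Rps2 (chromosome 17, 24718121 to 24721927), which lines the mRNA entry, had 75.7, 63.8 and 104 CPM in Pdx1 siRNA IP, against 35.0 CPM in NT IP 3 (log2 fold change 1.22, SE 0.21, adjusted p = 2.7e-04). NT IP 1 and 2 had 236 and 212 CPM, far above both, and with the 3 NT IP libraries as 1 group its log2 fold change was −0.98. Near-identical sequence covers 93.3% of its transcript, and it shares windows with 74 genes. Rpl3 had 98.7, 91.3 and 83.0 CPM in Pdx1 siRNA IP, against 53.7 CPM in NT IP 3 (log2 fold change 0.76, SE 0.13, adjusted p = 2.2e-04) and 65.8 and 60.3 CPM in NT IP 1 and 2. Every Pdx1 siRNA IP library was above all 3 NT IP libraries for Rpl3.

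Rpl27a had 63.5, 63.4 and 58.3 CPM in Pdx1 siRNA IP, against 40.2 CPM in NT IP 3 (log2 fold change 0.62, SE 0.18, adjusted p = 0.0102) and 42.4 and 37.8 CPM in NT IP 1 and 2. Rps6 had 18.0, 18.2 and 17.8 CPM in Pdx1 siRNA IP, against 12.7 CPM in NT IP 3 (log2 fold change 0.51, SE 0.16, adjusted p = 0.0179) and 15.5 and 15.2 CPM in NT IP 1 and 2. Both were above all 3 NT IP libraries in every Pdx1 siRNA IP library, as were 17 of the 84 members and 32.3% of all genes. Rpl22l1 had 52.4, 47.4 and 39.6 CPM in Pdx1 siRNA IP, against 29.1 CPM in NT IP 3 (log2 fold change 0.67, SE 0.25, adjusted p = 0.044), but 50.5 and 36.6 CPM in NT IP 1 and 2, which overlap the Pdx1 siRNA IP libraries. Its call was lost without Pdx1 siRNA IP 1 (0.56), without Pdx1 siRNA IP 2 (0.67) and without NT total 3 (0.67). It was also lost with DESeq2 (0.68) and when NT IP 3 shared a mean with NT IP 1 and 2 (0.26). Rps27l, at 121, 121 and 103 CPM in Pdx1 siRNA IP against 75.7 CPM in NT IP 3, did not pass (log2 fold change 0.61, SE 0.25, adjusted p = 0.0594), although every Pdx1 siRNA IP library was above all 3 NT IP libraries.

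Rps19bp1 was again the member called lower, with 17.9, 16.4 and 16.5 CPM in Pdx1 siRNA IP, against 22.3 CPM in NT IP 3 (log2 fold change −0.40, SE 0.11, adjusted p = 0.0105) and 22.9 and 21.8 CPM in NT IP 1 and 2. It shares no window with another gene, and the 3 NT IP libraries lie close together. The stalk proteins were at 0.48 for Rplp0 (called), 0.29 for Rplp1 and 0.02 for Rplp2. The call of Rplp0 was lost without Pdx1 siRNA IP 1 (0.38) and with only the compared libraries (0.48). It was also lost when NT IP 3 shared a mean with NT IP 1 and 2 (0.10). Rpl10a was at −0.09 and Rpl11 at 0.21, neither of them called. Without Pdx1 siRNA IP 1 the count of members higher was 6, without NT total 3 it was 9, and without Pdx1 siRNA total 1, which here enters only through the shared spread, it was 26.

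The siRNA effects in total RNA and in IP RNA against NT IP 3 share no library. Of the 8 members higher in total RNA 4 were also higher in IP RNA, 50% of the first list and 28.6% of the second: Rpl3, Rpl22l1, Rpl27a and Rps6. Over all genes these shares were 72.6% and 85.2%. Rps19bp1 was lower in both. Across the 84 members the fold changes correlated at Pearson r = 0.61 and Spearman rho = 0.66, against 0.91 and 0.88 over all genes; the points are genes and not replicates, and those with shared sequence are not independent.

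**Figure D5:**
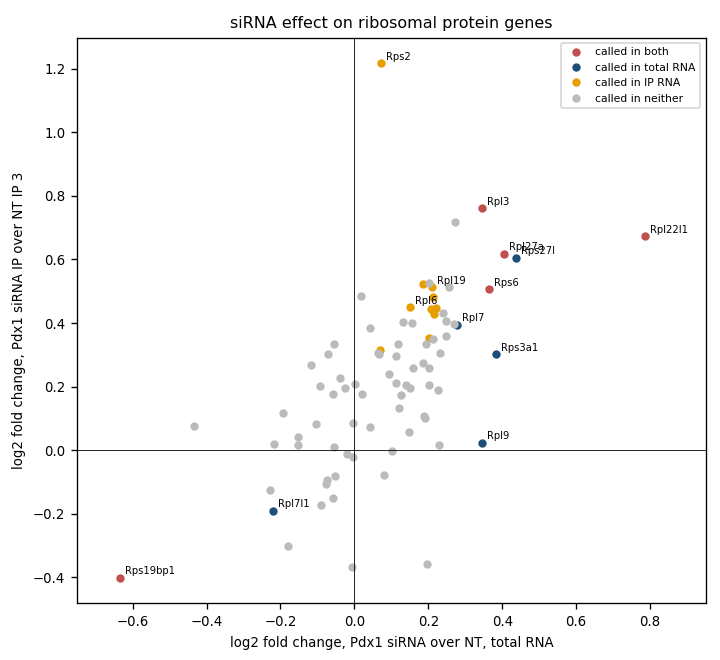
Log2 fold change of each of the 84 genes in total RNA (x, Pdx1 siRNA over NT) and in IP RNA (y, Pdx1 siRNA IP over NT IP 3), coloured by which test called it. Most points lie within 0.5 of 0 on both axes, Rpl22l1 is far to the right, Rps2 is high on the y axis only, and Rps19bp1 is at the lower left.

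Set against NT IP 1 and 2, many members had the opposite direction. There 13 members were called higher and 41 lower, where 57.2% of all genes were called, 28.1% higher and 29.1% lower, and the median was −0.26 over the members against −0.01 over all genes. The lowest were Rpl32l (−5.41), Rpl35 (−4.17), Rpl36 (−3.69) and Rps10 (−3.66), whose values in NT IP 3 were as low as after Pdx1 siRNA. Among the highest were Rpl27a (0.62), Rps20 (0.58) and Rps27l (0.55). Without NT IP 2 the count of members higher was 3. The falls cannot be told apart from what sets NT IP 3 and the Pdx1 siRNA IP libraries apart from NT IP 1 and 2.

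Whether the siRNA moved the members differently in IP and total RNA was tested as the difference between the effect against NT IP 3 and the effect in total RNA. It called 0 members in either direction, where 0.0395% of all genes were called, 0.0237% higher and 0.0158% lower, and at an unadjusted p under 0.05 edgeR had 2 members higher, Rps2 and Rpl3, and 0 lower. DESeq2 called 1 member higher. The difference was 1.14 for Rps2 (SE 0.25, adjusted p = 0.215) and 0.41 for Rpl3 (SE 0.16, adjusted p = 0.586), on the log2 scale. The members' median difference was 0.15, against 0.02 over all genes. NT IP 3 is 1 library and lay within 2-fold of the Pdx1 siRNA IP mean at 83 of 84 members. The difference was not tested against NT IP 1 and 2 alone, where 13 members were called higher and 41 lower in IP RNA. The absence of calls therefore does not show equal effects in the fractions. A call in 1 fraction only is therefore not shown to be a difference between the fractions.

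Other genes of the pathway were counted from lists chosen with earlier results known. Of 4 symbols for ribosomal proteins outside the naming pattern 3 were measured, among them Fau, fused to a ubiquitin-like protein, and Rack1, a scaffold on the small subunit. They followed the family in NT cells, where all 3 were higher in IP than in total RNA, with log2 ratios of 0.64 for Fau and 1.06 for Rack1. None was called for the siRNA effect in total RNA by edgeR (0 of 3, also at an unadjusted p under 0.05), and their fold changes there lay between −0.30 and 0.11. In Pdx1 siRNA IP their distance from the family depended on the comparison. Their median log2 ratio to Pdx1 siRNA total RNA was 1.80, against 0.45 over the members and 0.84 over the 58 members not low in NT IP 3. Set against NT IP 1 and 2 their median log2 fold change was 0.75, against −0.26 over the members and −0.05 over those 58. Set against NT IP 3 it was 0.28, close to the 0.23 over the members.

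Of 23 measured translation factors and other mRNAs known for the TOP motif, 6 were higher and 8 lower in total RNA after Pdx1 siRNA (median log2 fold change −0.03). The elongation factor subunit Eef1g was higher (log2 fold change 0.45, SE 0.09, adjusted p = 5.9e-04), while the RNA-binding protein Ybx1 (log2 fold change −0.76, SE 0.10, adjusted p = 5.3e-06) and the histone chaperone Nap1l1 (log2 fold change −0.58, SE 0.07, adjusted p = 2.9e-06) were lower, as was the splicing factor Hnrnpa1 (log2 fold change −0.56). In IP RNA against NT IP 3, 9 were higher and 4 lower, with Eef2, which moves the ribosome along the mRNA, at 2943, 2748 and 2750.1 CPM in Pdx1 siRNA IP against 1643 CPM in NT IP 3 (log2 fold change 0.78, SE 0.13, adjusted p = 1.9e-04). Eef1a1, the factor that brings tRNA to the ribosome, was at 0.78. Set against NT IP 1 and 2, 8 of the 23 were higher and 10 lower, where 57.2% of all genes were called. The median log2 fold change of the 23 was −0.15 there. Tpt1, a growth-related protein with a classic TOP mRNA, had 135, 82.0 and 128 CPM in Pdx1 siRNA IP, against 11.4 CPM in NT IP 3 and 110.3 and 113 CPM in NT IP 1 and 2. Its difference between the fractions, 3.29 on the log2 scale, was taken against NT IP 3 alone. NT IP 1 and 2 lie within the range of the Pdx1 siRNA IP libraries, so this difference rests on the low value of NT IP 3.

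Of 61 measured ribosome assembly genes, 2 were higher and 27 lower in total RNA after Pdx1 siRNA (median log2 fold change −0.18), and in IP RNA against NT IP 3 2 were higher and 22 lower (median −0.25). Tcof1, which serves rRNA transcription, fell in both (log2 fold change −0.80 in total RNA and −1.06 in IP RNA), as did Nop58, a core protein of the box C/D particles that methylate rRNA (−0.42 and −0.73). Among 23 measured regulators, 3 were higher and 9 lower in total RNA. Eif4ebp1, the translation repressor that mTORC1 inactivates, had a log2 fold change of −1.26 (SE 0.10, adjusted p = 1.6e-08), Myc, which activates ribosome genes, −0.69 (SE 0.11, adjusted p = 6.7e-05), and Sesn2, an inhibitor of mTORC1, 0.76 (SE 0.08, adjusted p = 1.3e-06). These counts stand beside the 54.1% of all genes called in total RNA and the 41.2% called in IP RNA against NT IP 3.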

How the data were processed

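The authors deposited, per library, counts of reads for each RefSeq transcript, as whole numbers and with no normalization. The submitters' processing notes name TopHat2, featureCounts and mm10 and give no versions. How reads with several matches and strand were treated is not given in the sources used here, so overlapping genes and copies cannot be told apart. Of 17133 transcripts, 16838 had a symbol in RefSeq's gene table (assembly GRCm38.p6, on which mm10 is based); the other 295 held 0.577% to 0.834% of a library's counts and were left out. A gene's counts are those of its transcript with the highest total (12643 genes, of which 2634 had more than 1 transcript).

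All 12 libraries entered 1 edgeR 4.0.16 quasi-likelihood fit (R 4.3.3) with TMM factors and 5 means: Pdx1 siRNA IP, NT IP 1 and 2, NT IP 3, Pdx1 siRNA total and NT total. P-values were adjusted by Benjamini-Hochberg over all 12643 genes, an adjusted p under 0.05 was called, and adjusted p-values in the text are edgeR's unless DESeq2 is named. SEs were derived from the fold change and the F statistic. The fit was tested on simulated data with known changes. The simulated libraries held no gap like that of NT IP 3, so this test does not bear on it. The shares of genes more than 2-fold below or above NT IP 1 and 2 in NT IP 3 use a pseudocount of 0.1 CPM. Other ratios computed from the CPM of NT IP 3 had none. Copies were searched with minimap2 2.31 among GENCODE M21 transcripts (at least 100 bases, 95% identity and 50% of the transcript, outside the gene's locus). Counts come from PCR reads without molecular identifiers, so counting error is a lower limit. Sequences are RefSeq promoters and GENCODE coding sequences of GRCm38, and 64 members had a promoter entry.

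The members and gene lists were chosen with earlier results of these data known. Named genes are Pdx1, Rpl10a, the stalk proteins, Rpl5, Rpl11, Rps6, Rpsa, Rps19, the paralogs, the 4 highest and 4 lowest members called per comparison (mean of 5 CPM or more), the extremes in level per length and in NT IP 3, members without a copy, and up to 4 genes of each other list. Beyond the rule, the other members called by the siRNA tests, Rpl14, Rpl36a, Rpl19 and the 2 members not called between NT IP and total were named after their values were seen. Alternatives were RLE and upper-quartile factors, TMM factors without the members or from genes without a copy, no Ins1 and Ins2, other filters, 4 means, a term for the 4 low IP libraries, the second transcript, the replicate number as a block, only the compared libraries, DESeq2 1.42.0, and each library left out. Whether replicate numbers pair the samples is not in the labels, and the main fit does not pair them. Some genes that the rule names are not reported here.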

Additional observations from a re-analysis of the deposited data

How the results depend on the processing

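Of the counts of members called, 270 values under the alternatives stayed within 1.5 times the count reported, and 24 did not. In total RNA, upper-quartile factors gave 15 members higher and 1 lower after Pdx1 siRNA, and 4 means with NT IP 3 in its group gave 5 higher. With the replicate number as a block there were 27 higher and 4 lower in total RNA, 23 higher and 2 lower against NT IP 3, and 1 member with a different effect between the fractions, as with DESeq2 (1). Against NT IP 3, 4 means gave 30 lower; against NT IP 1 and 2, a term for the 4 low IP libraries left 1 lower, since it then equals the comparison with NT IP 3. Leaving out 1 library gave 4 to 14 higher and 1 to 4 lower in total RNA, 6 to 26 higher and 1 lower against NT IP 3, 3 to 15 higher and 32 to 43 lower against NT IP 1 and 2, 76 to 82 higher and 0 lower for IP against total RNA with NT, 44 to 53 higher and 19 to 21 lower with Pdx1 siRNA, and 0 to 1 higher and 0 lower for the difference. The cause was not tested for any other of these. Among single genes, 1758 values kept direction and call, 21 gained a call, 45 lost it and 23 turned round. Of these 23, 6 were called before or after: with 4 means, Rps2 (−0.98), Rpl32l (−4.83), Rplp2 (−1.58) and Rps19 (−0.75) against NT IP 3, and with the term, Rpl32l (0.27) and Rpl36 (0.34) against NT IP 1 and 2. The other 17 were called neither way. Against NT IP 3 they were Rpl11 (−0.35), Rpl10a (0.018) and Rpl36al (−0.15) with 4 means, Rpl36al (−0.0044) without Ins1 and Ins2, Rpl36al (−0.067) and Rplp2 (−0.066) with the replicate block, and Rpl36al (−0.095 to 0.071 with 1 library left out) and Rplp2 (−0.17 to 0.11) without Pdx1 siRNA IP 1. In total RNA they were Rpl11 without Pdx1 siRNA total 1, Pdx1 siRNA total 3 or NT total 2 (−0.13 to 0.18 with 1 library left out), with the block (−0.0028) and with TMM factors without the members (−0.00075) or from genes without a copy (−0.0079), Rplp1 (−0.0066 to 0.24) and Rpsa (−0.017 to 0.24) without Pdx1 siRNA total 1, and Rpl10a (−0.11 to 0.0068) without NT total 3. Rpl22l1 in total RNA kept its call under every alternative run, while Rpl22l1 against NT IP 3 lost it under 5 of them, Rpl5 against NT IP 3 under 10 and Rpl7l1 in total RNA under 5. No scaling moved the median of all genes by over 0.1. The labels do not say whether the replicate numbers pair the samples. Deviations of libraries with the same number correlated at −0.10 to 0.51, over 0.1 in 9 of 18 pairs. Those of libraries with different numbers correlated at −0.52 to 0.27. Among the named genes the block added calls for Rpl5, Rpl36al, Rplp0, Rplp2 (lower, −0.21) and Rps19 in total RNA and for Rpl7l1, Rps27l and Rpsa against NT IP 3. The term for the 4 IP libraries was not run for IP against total RNA with Pdx1 siRNA, and NT IP 3 was not left out of the comparisons that rest on it. Depth limits Rps23, Rps27rt, Rps13 and Rpl28, the members with the lowest levels per length.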

Other observations

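The 4 pseudogene symbols left out of the family by their names were counted too. Rps15a-ps4 had 9, 5 and 8 counts in Pdx1 siRNA IP, against 761, 546 and 12 counts in NT IP 1, 2 and 3, while the total RNA libraries had 340, 394 and 365 counts after Pdx1 siRNA and 344, 454 and 571 counts after NT. Rplp2-ps1 had 173, 196 and 213 counts in Pdx1 siRNA IP, against 4502, 3717 and 266 counts in NT IP 1, 2 and 3. Rpl34-ps1 had 451, 499 and 507 counts in Pdx1 siRNA IP, against 5472, 4046 and 557 counts in NT IP 1, 2 and 3. In these 3 genes NT IP 3 lies with the Pdx1 siRNA IP libraries. Rps15a-ps6 had 55, 56 and 47 counts in Pdx1 siRNA IP, against 73, 47 and 56 counts in NT IP 1, 2 and 3, and shows no such gap. Over all 12643 genes NT IP 3 was more than 2-fold below NT IP 1 and 2 at 146 and above them at 10.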
